A study of Mus musculus with 28 samples.

Results

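The 7SK and 7SL RNAs were described in extracellular vesicles (EVs) and EV-depleted plasma of ageing mice. The members were the rows of the small noncoding RNA table whose gene symbol is Rn7sk, Rn7s1 or Rn7s2, which gave 3 rows, 1 for each symbol, of 571 rows of the class misc_RNA and 80668 rows in all. Rn7sk encodes 7SK RNA, and Rn7s1 and Rn7s2 encode 7SL RNA. The measures were the counts per row, the deposited RPM (counts scaled by 1 divisor for each library, with the total count at 0.93 to 3.81 times the divisor), the share of all misc_RNA counts and the ratio between the members in the same library.

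The study sequenced the small noncoding RNA of plasma from 14 female wildtype C57BL/6N mice to compare vesicle cargo with freely circulating RNA across age. Blood was taken at 2 months (3 mice), 6 months (4 mice), 8 months (3 mice), 12 months (2 mice) and 18 months (2 mice). The plasma of each mouse was split by ultracentrifugation into an EV-enriched pellet (below, EVs) and an EV-depleted supernatant that the labels call free circulating (below, plasma), so that 28 libraries form 10 groups. The protocol states that animals were not pooled, although 2 plasma libraries of 2 months share a label code that names both mouse 3 and mouse 4. Each 12- or 18-month group holds 2 mice.

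7SK RNA is a structured RNA made by RNA polymerase III that binds the kinase P-TEFb together with HEXIM proteins and holds it inactive, and so restrains transcription elongation in the nucleus. 7SL RNA, also made by RNA polymerase III, is the scaffold of the signal recognition particle, which brings ribosomes with secretory or membrane proteins to the endoplasmic reticulum. Both RNAs are abundant in most cells, 7SK in the nucleus and 7SL mainly in the cytoplasm, and 7SL fragments are a known component of vesicle RNA.

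The transcripts carry the first result, because they decide what the rows can tell apart. They were read from GENCODE M21 transcripts on GRCm38, to which 12400 of 12786 rows with a transcript identifier matched, and the labels name mm10, the same assembly. Sequence was compared over these 12400 rows only. Rows without a transcript identifier, which include the miRNA, piRNA, circRNA and tRNA rows, were not searched. Rn7sk lies in chr9:78175303-78175633 on the minus strand, is 331 bases long and overlaps no other annotated gene. Rn7s1 and Rn7s2 are both 300 bases long, and each overlaps 2 annotated miRNA genes on its own strand. In the 7SK sequence, of which the last 300 bases are shown, the capitals mark positions 228 to 316. Every 20-base word of 7SK that no other compared row holds lies there. Parts of the capitals are still shared, since the row Gm23037 holds positions 257 to 278 and 298 to 331. The start of the capitals is shared more widely. The row Gm26102 holds positions 217 to 246, and 20 compared rows hold the word at positions 222 to 241.
Rn7sk: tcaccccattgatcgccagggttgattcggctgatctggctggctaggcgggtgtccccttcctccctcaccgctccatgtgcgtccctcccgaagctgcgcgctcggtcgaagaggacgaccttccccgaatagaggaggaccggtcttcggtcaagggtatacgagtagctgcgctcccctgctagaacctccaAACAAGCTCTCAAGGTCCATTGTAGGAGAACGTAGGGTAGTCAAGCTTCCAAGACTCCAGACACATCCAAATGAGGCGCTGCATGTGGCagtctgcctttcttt

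Rn7s1 and Rn7s2 were identical at 300 of 300 bases, and their counts were equal in 28 of 28 libraries. These rows cannot be told apart and were treated as 1 measurement, whether each read was entered in both or divided between them. Values are given for Rn7s1 and hold for Rn7s2. Besides these, 10 other misc_RNA rows shared at least 20 bases with 7SL. Of its 281 words of 20 bases, 28 were in no compared row but Rn7s1 and Rn7s2. For 7SK, 72 other misc_RNA rows shared at least 20 bases, and 67 of its 312 words were in no other compared row. The sources used here do not say how reads that match several rows were divided, so every value of these 3 genes may include reads of a copy and is uncertain in that sense.

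The libraries held between 928651 and 52753818 counts. One library, plasma of 6-month replicate 1, lay under 2000000 counts. The class misc_RNA took 0.248 to 0.689% of the counts of a library. The fractions differed in their main classes, with rRNA at a median of 43.1% of counts in EVs and 11.7% in plasma, and tRNA at 32.1% in EVs and 61.6% in plasma. Shares with rRNA left out of the total are therefore given below.

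In EVs, Rn7sk was low in most mice up to 8 months and higher in the 4 older mice. The EV levels at 2 months were 10.9, 8.28 and 28.4 RPM, and at 6 months 10.5, 10.6, 15 and 65.1 RPM. At 8 months they were 21.5, 18.8 and 13.1 RPM, at 12 months 69.5 and 149 RPM, and at 18 months 46.4 and 35.1 RPM. By RPM, each of the 4 libraries at 12 and 18 months lay above at least 9 of the 10 libraries of younger mice, and the exception was replicate 4 at 6 months. By percentage of all counts, 3 of the 4 lay above 9, and 18-month replicate 2 lay above 7. Since each library is a bulk sample, fewer source cells or vesicles and less RNA in each of them cannot be told apart.

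In plasma the same mice stood out at lower levels of Rn7sk. The plasma levels at 2 months were 15.7, 7.98 and 13.7 RPM, and at 6 months 10.2, 6.37, 6.01 and 31.6 RPM. At 8 months they were 10.5, 10.1 and 8.83 RPM, at 12 months 17.3 and 50.2 RPM, and at 18 months 37.1 and 20.9 RPM. Again the 4 older libraries lay above at least 9 of the 10 younger ones by RPM, with 6-month replicate 4 as the exception, and 18-month replicate 2 lay above 7 by percentage of all counts. These levels rest on 51 to 2059 counts in EVs and 6 to 416 counts in plasma. In the shallowest library, 6 of 6400 misc_RNA counts were Rn7sk, a share of 0.0938% (exact 95% interval 0.0344 to 0.204%, counting error only).

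7SL did not follow this order of ages. The EV levels of Rn7s1 were 1651, 1805 and 1873 RPM at 2 months, and 1532, 906, 947 and 1024 RPM at 6 months. They were 1797, 1127 and 1516 RPM at 8 months, 1838 and 4363 RPM at 12 months, and 1447 and 1766 RPM at 18 months. By RPM, the EV levels of 6 months lay below those of 2 and 12 months and those of 8 months below those of 12 months. By percentage of all counts 2 and 6 months overlapped, at 0.0581 to 0.112% and 0.0701 to 0.0929%. So did 8 and 12 months, with a highest 8-month value of 0.1064% against a lowest 12-month value of 0.1061%. The 6-month values stayed below those of 12 months by this measure too. The EV levels of 18 months lay below those of 12 months by both measures. By percentage of all counts, at 0.0581 and 0.0783%, they also lay below those of 8 months, which began at 0.0875%. In plasma Rn7s1 was at 2664, 1364 and 2013 RPM at 2 months, and at 2599.7, 954, 677 and 1339 RPM at 6 months. It was at 2447, 1084 and 1609 RPM at 8 months, 854 and 3430 RPM at 12 months, and 1198 and 1534 RPM at 18 months. By RPM all ages overlapped in plasma, and the fractions overlapped each other, with medians of 1591 RPM in EVs and 1449 RPM in plasma. By percentage of all counts, the plasma libraries of 18 months, at 0.0529 and 0.0552%, lay below all of those of 2, 6 and 8 months (lowest 0.0727%). The highest RPM in each fraction was that of 12-month replicate 2, whereas by percentage of all counts the highest plasma library was 6-month replicate 1, at 0.164%. Per kilobase of transcript, the counts of Rn7s1 exceeded those of Rn7sk by a median of 71.2-fold in EVs (range 17.4 to 240) and 143-fold in plasma (range 35.6 to 281).

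**Figure D1:**
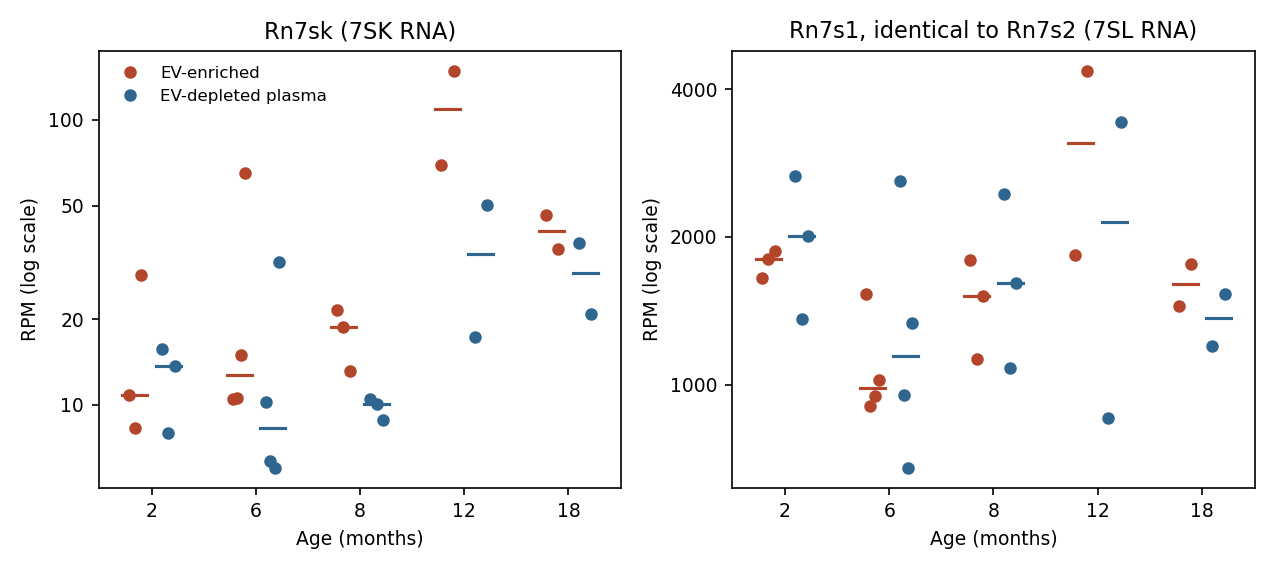
Levels of Rn7sk (left) and Rn7s1 (right) in RPM on log axes against age in months, with ages at equal spacing; each point is 1 library, red for EVs and blue for plasma, and lines are medians. Rn7sk reached 149 RPM in EVs at 12 months, and 6-month replicate 4 stood apart at 65.1 RPM in EVs and 31.6 RPM in plasma.

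The first comparison asked which RNAs are enriched in vesicles. Rn7sk was higher in EVs than in plasma, whereas the 7SL rows were not called. By RPM, 13 of 14 mice had more Rn7sk in EVs, with a median ratio of 1.78 (range 0.692 to 4.03), although the levels of the fractions overlapped. In edgeR's quasi-likelihood test over 22322 RNAs with age as a covariate, the log2 fold change of Rn7sk was 1.41 (SE 0.38, n = 14 libraries a fraction, Benjamini-Hochberg adjusted p = 0.00852). Rn7sk was thus 1 of the 3 member rows called higher, where 10.0% of all RNAs tested were called higher in EVs. The call depended on the scaling. With libraries scaled by their total count the log2 fold change was 0.88 (adjusted p = 0.0792), and by their misc_RNA count 0.93 (adjusted p = 0.0727), but these scalings also moved the median of all RNAs to -0.51 and -0.43, and relative to that median Rn7sk stood at 1.38 and 1.36.

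By RPM, 7 of 14 mice had more Rn7s1 in EVs, with a median ratio of 0.995. Its log2 fold change was 0.58 (SE 0.35, adjusted p = 0.300 by edgeR's quasi-likelihood test), and it was -0.02 with the deposited RPM scaling and -0.09 with total counts. With a term for each mouse the value was 0.57 (adjusted p = 0.0217), so the 7SL rows were called higher in that fit, in which 11.1% of all RNAs were. The sign of the 7SL fold change therefore depended on the scaling. Relative to the median of all RNAs, Rn7s1 stood at 0.59 in the main fit and at 0.44 with RPM scaling. With total count and misc_RNA scaling it stood at 0.42 and 0.51. Rn7s1 was not called in any of these fits.

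As a share of misc_RNA counts, which needs no scaling of the library, Rn7sk and the row Rn7s1 were higher in EVs. Rn7sk took 0.112 to 1.18% of misc_RNA in EVs, with a median of 0.343%, and 0.0938 to 0.616% in plasma, with a median of 0.159%. Its mean share was 0.432% ± 0.304 in EVs and 0.235% ± 0.159 in plasma (SD, n = 14 each). The within-mouse difference was 0.198 percentage points, higher in EVs in 13 of 14 mice (two-sided exact test over all sign changes, p = 0.000366, 0.0011 after adjustment for the 3 tests of this kind, with Rn7s2 entered beside Rn7s1). Rn7s1 alone took 22.3% ± 1.82 in EVs and 21.1% ± 1.47 in plasma (SD, n = 14 each), higher in EVs in 11 of 14 mice (exact p = 0.00574, adjusted 0.00574). With the libraries taken as unpaired, neither difference was called (permutation p = 0.0362 for Rn7sk and 0.0702 for Rn7s1, both 0.0702 adjusted).

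The denominator was itself mostly 7SL. The share of Rn7s1 was thus largely taken among rows with 7SL sequence, and does not measure 7SL as a whole. Rn7s1, Rn7s2 and the other rows with 7SL sequence took a median of 91.9% of misc_RNA counts in EVs (range 80.0 to 95.6%) and 91.8% in plasma (range 84.7 to 96.4%). When all of these were left out of the denominator, a choice made after seeing the data, Rn7sk remained higher in EVs, by 2.29 percentage points (exact p = 0.000366, adjusted 0.0011). The row Rn7sk does not measure 7SK sequence as a whole either. Other rows with 7SK sequence took a median of 1.92% of misc_RNA counts in EVs (range 0.769 to 6.11%) and 1.83% in plasma (range 0.516 to 4.26%). As a percentage of all counts, the difference for Rn7s1 turned to -0.00723 percentage points (exact p = 0.445). As a percentage of all counts other than rRNA it was higher in EVs by 0.0431 percentage points (exact p = 0.00061), and Rn7sk by 0.0018 percentage points (exact p = 0.000122), so the direction for 7SL within the library depended on whether rRNA was counted.

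The ratio of the members within a library also needs no scaling of the library, with 7SL in place of the misc_RNA total. It uses the same Rn7sk counts as the share, and depends on 7SL as well as on Rn7sk. In EVs there were 4.59 to 63.5 Rn7sk counts per 1000 Rn7s1 counts, with a median of 15.5, and in plasma 3.93 to 31.0, with a median of 7.83. The ratio was higher in EVs in 13 of 14 mice, and 2-month replicate 2 was the exception (4.59 in EVs against 5.85 in plasma). On the log2 scale the ratio of 7SL to Rn7sk was 0.75 lower in EVs (SD of the difference 0.52, n = 14 mice, two-sided exact test over sign changes, p = 0.00061). With the libraries unpaired, the permutation p was 0.0618. The sum of Rn7s1 and Rn7s2 was used, which adds a constant to this ratio and leaves the difference untouched.

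**Figure D2:**
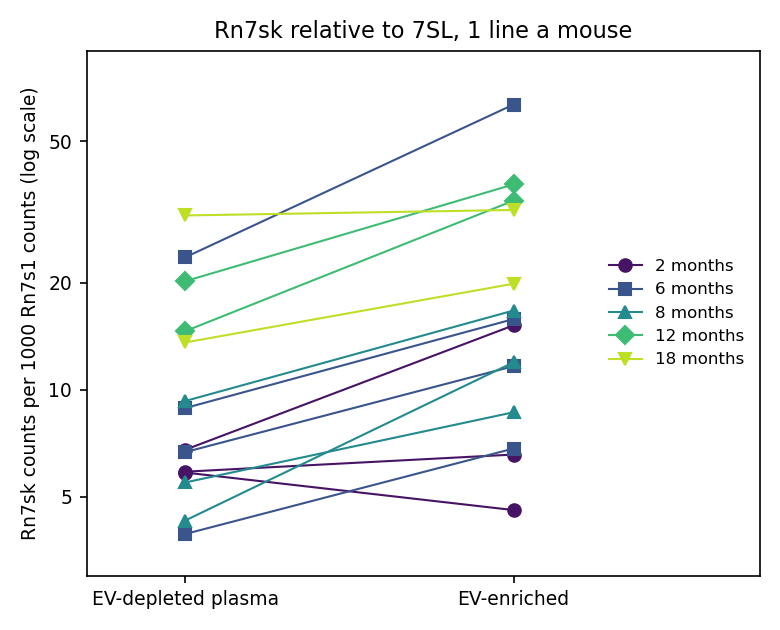
Rn7sk counts per 1000 Rn7s1 counts on a log axis in plasma (left) and EVs (right), with 1 line for each of 14 mice and colours and symbols for age. The line falls only in 2-month replicate 2, and 6-month replicate 4 is highest in EVs at 63.5.

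The second comparison asked which RNAs change with age within a fraction. The fitted slope of Rn7sk was positive in both fractions but was not called. In EVs the slope was 0.17 per month on the log2 scale (SE 0.06, n = 14, unadjusted p = 0.00843, adjusted p = 0.686 by edgeR's quasi-likelihood test over 18569 RNAs). No RNA passed the threshold in EVs (0% called), with 1078 at an unadjusted p under 0.05 and 1 called by DESeq2. In plasma the slope of Rn7sk was 0.09 per month (SE 0.04, n = 14, unadjusted p = 0.0435, adjusted p = 0.682 over 21631 RNAs), where 3 RNAs or 0.0139% were called. Without 12-month replicate 2, the mouse with the highest levels, the slopes were 0.10 in EVs and 0.05 in plasma. Rn7s1 had slopes of 0.03 in EVs (SE 0.05, edgeR adjusted p = 0.987) and -0.02 in plasma (SE 0.05, edgeR adjusted p = 0.977). Both were within 1 SE of 0 in these fits. With total count scaling the plasma slope of Rn7s1 was -0.053 (SE 0.031), also not called.

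The difference between the slopes of the fractions was tested as an interaction. It was 0.09 per month for Rn7sk (SE 0.08, edgeR adjusted p = 1) and 0.06 for Rn7s1 (SE 0.07, edgeR adjusted p = 1). No RNA was called there (0% of 22322), with 893 at an unadjusted p under 0.05 and 6 called by DESeq2. The age slopes of the members were thus not shown to differ between EVs and plasma.

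Shares and ratios with age were examined over the 14 mice of a fraction. The share of Rn7sk in misc_RNA correlated with age in EVs with Spearman's rho of 0.611 (permutation p = 0.0218) and Pearson's r of 0.431 (permutation p = 0.123). In plasma rho was 0.508 (permutation p = 0.0662) and r was 0.671 (permutation p = 0.00963). None passed after adjustment over 12 coefficients, the lowest adjusted permutation p being 0.116. In these 12 the coefficients of Rn7s1 entered again for the identical Rn7s2, which makes the adjustment stricter. Without the 2 mice of 18 months the 4 values were 0.550, 0.484, 0.297 and 0.485. Replicate 4 at 6 months decided the call. Without that mouse the coefficients were 0.768 and 0.737 in EVs and 0.622 and 0.796 in plasma, with adjusted permutation p of 0.0191 for rho in EVs, 0.0199 for r in EVs, 0.0811 for rho in plasma and 0.0156 for r in plasma. The share of Rn7s1 had coefficients between -0.292 and -0.213, none called (the lowest permutation p was 0.311).

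The log2 ratio of 7SL to Rn7sk had negative coefficients with age in both fractions, and 1 of the 2 coefficients of each fraction was called. In EVs rho was -0.627 (permutation p = 0.0182, adjusted over 4 coefficients 0.0363) and r was -0.554 (permutation p = 0.0397, adjusted 0.0529). In plasma rho was -0.508 (permutation p = 0.0662, adjusted 0.0662) and r was -0.649 (permutation p = 0.0118, adjusted 0.0363). Without the 18-month mice rho was -0.575 and r -0.589 in EVs (unadjusted permutation p = 0.0536 and 0.0441, adjusted 0.107 for both), and in plasma rho was -0.297 and r -0.481. Neither call held without those mice, while the EV coefficients stayed close to their values over all mice. Leaving out any 1 mouse kept rho in EVs between -0.784 and -0.549 and r in plasma between -0.772 and -0.507, but 9 of the 14 omissions ended each of these calls. Both calls were kept without 2-month replicate 3, 6-month replicate 4, 8-month replicate 1 or 3, or 18-month replicate 2, and were lost without any of the other mice (highest adjusted permutation p = 0.107).

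Markers of possible source cells were examined beside these results. Every marker of red cells (4 miRNAs), platelets (3), liver (2) and lymphocytes (3) was above 0 in each library, as were Malat1 and Neat1. The summed platelet miRNAs ranged from 127 to 1049 RPM in EVs and from 111 to 733 RPM in plasma, and were higher in EVs in 8 of 14 mice. The summed liver miRNAs ranged from 17.1 to 225 RPM in EVs and from 12.6 to 161 RPM in plasma, and were higher in EVs in 10 of 14 mice. Red cell miRNAs ranged from 490 to 4128 RPM in EVs and from 645 to 2980 RPM in plasma, and lymphocyte miRNAs from 129 to 594 RPM and from 86.2 to 329 RPM. Malat1 and Neat1 together ranged from 151 to 329 RPM in EVs and from 137 to 248 RPM in plasma. Malat1 alone was higher in EVs in 3 of 14 mice and Neat1 in 13 of 14.

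Some of these lists were high in EV libraries where Rn7sk was high. In 6-month replicate 4, platelet miRNAs were at 1049 RPM in EVs against 127 to 182 RPM in the other mice of that age, and liver miRNAs at 225 RPM against 27.8 to 53.6 RPM. The snRNA class stood at 132141 RPM in that EV library, against 23938 to 44819 RPM. At 12 months EV lists were high as well, with platelet miRNAs at 850 to 888 RPM and liver miRNAs at 111 to 122 RPM. The snRNA class was at 82359 to 117904 RPM there. Red cell miRNAs in EVs were at 2039 to 4128 RPM at 12 months, but also at 1465 to 3449 RPM at 2 months, where Rn7sk was low. In EVs of 6-month replicate 4, red cell miRNAs were at 1107 RPM, against 490 to 720 RPM in the other mice of that age. Lymphocyte miRNAs were at 459 to 594 RPM in the 12-month EV libraries, against at most 286 RPM in EVs at any other age. They were at 216 RPM in EVs of 6-month replicate 4, against 129 to 195 RPM in the other mice of that age. Between the fractions, the snRNA class was higher in EVs in 12 of 14 mice, lymphocyte miRNAs in 11, red cell miRNAs in 9 and the snoRNA class in 8. The snoRNA class ranged from 675 to 7566 RPM in EVs and from 691 to 2813 RPM in plasma. The part of these markers in the levels of Rn7sk was not tested.

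The other structured noncoding RNAs of the list gave the setting of the members. Of 16 symbols, 11 had a row and 10 passed the filter in the comparison of fractions. Of these, 4 were called higher in EVs and 0 lower (6 had an unadjusted p under 0.05), against 10.0% of all RNAs called higher. The median log2 fold change of the 10 was 0.75, beside -0.02 over all RNAs. Rpph1, Rprl2, Rprl3, Rnu6 and Rnu6atac were not analysed here.

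Rmrp, the RNA of the ribonuclease MRP that cuts ribosomal RNA precursors, had the highest fold change of the list. It had a median of 18.1 RPM in EVs (range 3.04 to 115) and 4.90 RPM in plasma (range 0 to 17.4), a log2 fold change of 2.63 (SE 0.49, edgeR adjusted p = 0.00022). The Y RNA Rny3, a partner of the Ro60 protein, had a median of 13.1 RPM in EVs and 4.36 RPM in plasma, a log2 fold change of 1.81 (SE 0.30, edgeR adjusted p = 6.9e-05). Vaultrc5, the RNA of the vault particle, had the higher RPM in EVs in each of 14 mice, with medians of 27.7 and 9.92 RPM and a log2 fold change of 1.81 (SE 0.26, edgeR adjusted p = 9e-06). Rnu73b was near the detection limit, with medians of 0.650 and 0.375 RPM and a log2 fold change of 1.41 (SE 0.41, edgeR adjusted p = 0.0151), and it was not called under the RPM, total count or misc_RNA scalings or without 6-month replicate 3 (adjusted p = 0.0511). The second Y RNA, Rny1, had a log2 fold change of 0.48 (adjusted p = 0.258), and Bc1 was the lowest of the list at -0.36 (adjusted p = 0.284).

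With age, 0 of 10 listed RNAs were called in EVs and 0 of 9 in plasma by edgeR, with 1 at an unadjusted p under 0.05 in each. The median slopes of the list were 0.06 and 0.02 per month, beside -0.00395 and 0.00384 over all RNAs.

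**Figure D3:**
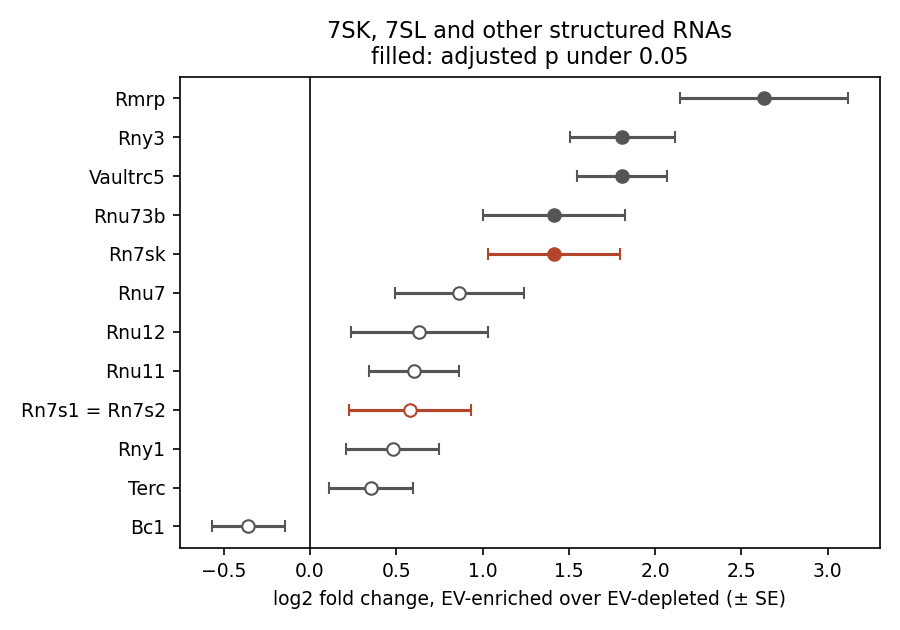
Log2 fold change of EVs over plasma with its standard error for Rn7sk and Rn7s1 (red) and 10 other structured RNAs (grey), from edgeR over 28 libraries; filled points have an adjusted p under 0.05. Rn7sk at 1.41 lies with Rnu73b, below Rmrp at 2.63, and Rn7s1 at 0.58 is open.

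The rows that share sequence with 7SL differed in how they stood to Rn7s1 in the fractions. These comparisons were chosen after seeing the data, over the 9 rows with at least 10000 counts. Rn7s6, which shares positions 20 to 40 and 42 to 214 of 7SL but not its last bases, had 0.452 to 0.678 counts per Rn7s1 count in EVs, with a median of 0.547, and 0.568 to 0.744 in plasma, with a median of 0.655. The ranges overlapped, but within a mouse the ratio was lower in EVs in 14 of 14 mice, by 0.26 on the log2 scale (SD 0.12, two-sided exact p = 0.000122, the smallest that 14 mice allow, adjusted over the 9 rows 0.0011).

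Of the other 8 rows, Gm23153 (-0.23, lower in 13 of 14 mice, exact p adjusted 0.00879), Gm24812 (-0.35, lower in 11 of 14, adjusted 0.00879) and Gm24105 (-0.21, lower in 10 of 14, adjusted 0.0417) were also lower against Rn7s1 in EVs. The remaining 5 were not called. Among them, Gm26461, which matches 7SL over positions 1 to 104, 106 to 140 and 157 to 182, was at 0.05 (exact p = 0.0557, adjusted 0.1).

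**Figure D4:**
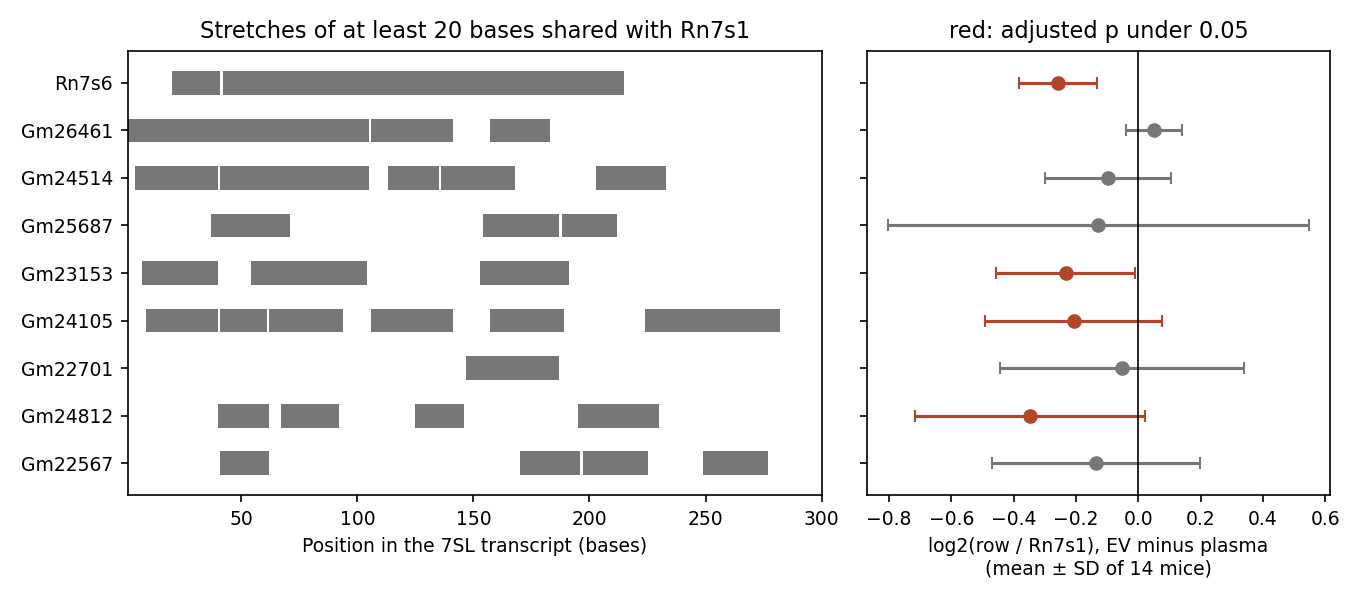
Left, stretches of at least 20 bases of the 7SL transcript (position in bases) found in each of 9 other misc_RNA rows; right, the log2 ratio of each row to Rn7s1, EVs minus plasma (mean ± SD, n = 14 mice), red where the adjusted exact p is under 0.05. Rn7s6, whose shared part ends at position 214, was lower in EVs by 0.26, and Gm26461 was at 0.05.

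Rows that share sequence with 7SK were compared with Rn7sk in the same way, over the 3 rows with at least 4000 counts. Gm24447 shares positions 1 to 241, Gm26315 positions 5 to 239 and Gm26035 positions 13 to 108 and 121 to 229, so none reaches most of the stretch in capitals. Against Rn7sk, Gm24447 was lower in EVs by 0.38 and Gm26315 by 0.36 on the log2 scale, each in 12 of 14 mice (exact p = 0.000732 and 0.000854, both 0.000854 adjusted over 3). Gm26035 was lower by 0.92 in 14 of 14 mice (exact p = 0.000122, adjusted 0.000366).

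The RNAs whose log2(RPM + 1) followed the members most closely over the 28 libraries were mostly their sequence relatives. For Rn7sk they were Gm24447 (Pearson's r 0.974), Gm23973 (0.973) and Gm26315 (0.972), of 11800 RNAs compared. All of them share at least 20 bases with 7SK. For 7SL they were Gm26461 (0.984), Rn7s6 (0.952) and piR-1027 (0.893), of which piR-1027 is a piRNA entry with no transcript in the annotation used here. These coefficients are descriptions, since the libraries share mice, the scaling and reads.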

How the data were processed

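Small noncoding RNA of EVs and EV-depleted plasma of 14 mice was measured in 28 libraries. The deposited files hold estimated counts without normalization and RPM, a signal the authors obtained by scaling the counts of each library with its own divisor. The methods of the study name miRMaster and Bowtie for its small RNA sequencing and do not describe the EV libraries, so the aligner, counter and RPM divisor of these libraries are taken as not stated. The submitters' processing notes name mm10 and R 4.0.4. All columns belonged to a labelled sample. The members and lists were chosen with earlier results of these data known.

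Estimated counts were rounded (46 of 80668 rows held values that were not whole), and transcripts of 1 symbol were summed for the members and the list. An RNA was tested if, within either fraction, over 10% of libraries reached 1 RPM. Tests used edgeR 4.0.16 (TMM, quasi-likelihood, R 4.3.3), with age in months as covariate or slope, Benjamini-Hochberg adjustment over all RNAs tested and a threshold of 0.05. The code was tested on simulated counts. DESeq2 1.42.0 was an alternative. DESeq2's adjusted p that were NA stayed NA. Shares and ratios were tested with exact sign changes within mice (16384) or 100000 permutations, in NumPy 2.4.6. Intervals are exact (Clopper-Pearson, 95%, SciPy 1.17.1) and cover counting error only. The sign-change p-values measure the spread of within-mouse differences. The main fits of the fractions and of the interaction have no term for the mouse. Their p-values take the 28 libraries as independent and measure the spread between libraries. Within 1 fraction each library is 1 mouse, so p-values with age measure the spread between mice.

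Fractions were paired by the mouse code in the labels. The plasma labels of replicates 2 and 3 at 2 months carry 1 shared code, and these were paired by replicate number. Over 13552 RNAs, the deviations of the fractions of a mouse from their age means correlated between -0.124 and 0.564, and over 0.1 in 12 of 14 mice. At 12 and 18 months, with 2 mice each, the deviations mirror each other. Both mice of such an age therefore share 1 value (0.564 and 0.269), which enters this count for each of them. The labels name no batch. Named RNAs were the 3 members, the 3 RNAs closest to each in pattern (at least 1 RPM in 50% or more of the libraries of each fraction) and the listed RNAs that passed, with Rny1, Bc1 and the rows of shared sequence named after their values were seen. Sequence was compared in words of 20 bases with GENCODE M21, only for rows that matched a transcript there. Sequences and positions of the 7SL rows are not reported here.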

Additional observations from a re-analysis of the deposited data

Results flagged for a closer look

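At 6 months, the 1 age with 4 mice, Dixon's rule was applied to 28 measures, and 8 had a value far from the other mice. The rule's rate of about 1 in 20 holds for independent normal values. These measures share libraries, and the level, share and ratio of Rn7sk share 1 count, so no excess over chance was shown. Of the 10 measures of the members, 4 were among the 8 flagged, all of replicate 4. Its Rn7sk level was 65.1 RPM in EVs and 31.6 RPM in plasma, its EV share of misc_RNA 1.18%, and its EV ratio 63.5 Rn7sk counts per 1000 Rn7s1 counts. In the same EV library the platelet miRNAs (1049 RPM) and the liver miRNAs (225 RPM) were the highest of that age, and Neat1 (107 RPM) was the lowest. Malat1, which the rule did not flag, went the other way there, at 148 RPM against 16.5 to 55.4 RPM in EVs of the other mice of that age. The lymphocyte miRNAs were high in plasma of 6-month replicate 1, at 329 RPM, the library with the fewest counts.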

How the results depend on the processing

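Of 215 values recomputed under alternatives other than leaving out a mouse, 173 kept their direction and side of the threshold, or for counts stayed within 1.5 times. For Rn7sk in EVs against plasma, total count scaling gave 0.88 and misc_RNA scaling 0.93 (not called), with the call kept by DESeq2, RPM scaling, both filters, the deeper libraries, the certain pairs and the replicate block. For Rn7s1 the value was -0.017 with RPM scaling, -0.093 with total counts and 0.57 (called) with the replicate block. The pairing changed no other call by edgeR. Without the pairing, the Rn7sk share (0.198), the Rn7s1 share (1.18) and the ratio (-0.75) lost their calls. The Rn7s1 share was -0.00723 as a percentage of all counts and 0.0431 (called) with rRNA left out of them. The slope of Rn7s1 was -0.012 in EVs with total counts, -0.0048 with misc_RNA scaling and -0.000703 without 12-month replicate 2, and 0.0035 in plasma without the 18-month mice, and the Rn7sk interaction was -0.017 with misc_RNA scaling. The rho of the Rn7s1 share with age in EVs was 0.025 for all counts and 0.072 for RPM, and its r 0.222 for RPM. The rho of the Rn7sk share in EVs was 0.791 (called) without 7SL rows in the denominator. Without the 18-month mice the 7SL to Rn7sk ratio had a rho of -0.575 in EVs and an r of -0.481 in plasma (not called).

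Counts of called RNAs moved more. RNAs higher in EVs numbered 2234, and 1010 with RPM, 669 with total count and 747 with misc_RNA scaling and 1108 with the 10 RPM filter. Those lower numbered 1581, and 4349 with RPM scaling and 780 with that filter. In EVs with age, 0 became 1 (DESeq2, total count, misc_RNA) or 3 (no filter). In plasma 3 became 32 (DESeq2), 7 (RPM), 81 (misc_RNA), 35 (no filter), 59 (without the 18-month mice) or 0 (10 RPM filter, deeper libraries, log2 of age), and the interaction gave 6 (DESeq2) or 2 (misc_RNA). The causes were not tested.

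Leaving out 1 mouse at a time kept Rn7sk in EVs against plasma between 1.22 and 1.56 with its call. The Rn7s1 slope in EVs ranged from -0.000703 to 0.058, called RNAs from 0 to 8 in plasma with age and from 0 to 3 in the interaction. For the Rn7sk share with age, rho was 0.532 to 0.768 and r 0.366 to 0.737 in EVs, and r 0.488 to 0.796 in plasma. For the ratio, rho was -0.784 to -0.549 and r -0.736 to -0.476 in EVs, and rho -0.622 to -0.392 and r -0.772 to -0.507 in plasma. Leaving Rn7s2 or rows with 7SL sequence out of misc_RNA, and the tests of Rn7s6, were chosen after seeing the data. Groups of 2 mice at 12 and 18 months limit every statement on age, and counts as low as 6 limit Rn7sk in plasma.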

Other observations

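The RNAs closest to Rn7sk were looked at beyond the first 3, chosen after their values were seen. Outside the rows found to share sequence, the closest to Rn7sk was the circular RNA mmu_circ_0000380 (Pearson's r 0.876), and miR-30a-5p followed at 0.873. Neither was among the rows compared by sequence. The U1 genes Rnu1b1 and Rnu1b2 (0.873, equal levels) and Rnu1a1 (0.871) were also among the 15 closest over the 28 libraries, as were 4 other snRNA rows. The libraries share mice, scaling and depth, so this is a description. In misc_RNA, Y RNA and vault RNA took small shares beside 7SL. Rny1 had a median of 0.967% in EVs and 0.841% in plasma, Rny3 0.186% and 0.0578%, and Vaultrc5 0.405% and 0.167%.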
